A study of Mus musculus with 9 samples.

Results

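Cytosolic ribosomal proteins are the proteins of the ribosome, the particle that makes the proteins of the cell. Gene symbols beginning with Rpl or Rps and a digit, together with Rpsa, Rplp0, Rplp1 and Rplp2, were taken from the count table of mouse hearts, without pseudogene symbols and the S6 kinases. The rule took 89 of 24964 symbols, and 84 of them had enough counts to be tested among 14347 genes. Of the 89, 77 encode a standard ribosomal protein, 31 of the small (40S) and 46 of the large (60S) subunit. A further 11 are paralogs, additional genes or gene copies of the same protein. Of these Rps4l is annotated as a transcribed pseudogene in both RefSeq and GENCODE, and Rpl32l and Rpl37rt are protein-coding in RefSeq and processed pseudogenes in GENCODE. The last, Rps19bp1, is a nucleolar protein that the rule takes by its name and is not a ribosomal protein.

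Bulk RNA sequencing was done on hearts of 9 C57BL/6JR mice, all male and 8 weeks old, with no transgene or agent other than isoflurane given in the labels. In 6 of them the left anterior descending branch of the coronary artery was tied, causing a myocardial infarction (MI), and the hearts were taken at 7 d (3 mice) or 28 d (3 mice). The other 3 mice had the chest opened without the ligation (sham), and the day on which their hearts were taken is not stated. The labels give the tissue only as heart, not the infarct, its border or the remote muscle. Levels below are CPM, counts per library size after edgeR's TMM scaling between libraries, and log2 fold changes (log2FC, ± standard error) come from edgeR with the same scaling. "Library size alone" means counts scaled to the library's total without TMM. "Rose" and "fell" are used for genes with a Benjamini-Hochberg adjusted p under 0.05 over all tested genes.

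A ribosome joins a 40S subunit, which reads the mRNA, to a 60S subunit, which forms the peptide bond. The stalk proteins of the 60S subunit recruit the elongation factors. Cells make ribosomal proteins in matched amounts with ribosomal RNA, and growing or secreting cells hold many more ribosomes than resting ones. Most ribosomal protein mRNAs start with a run of pyrimidines (5′ terminal oligopyrimidine, TOP), through which the kinase complex mTORC1 and the RNA-binding protein Larp1 control their translation. In striated muscle Rpl3l takes the place of Rpl3 in part of the ribosomes.

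The stretch around the annotated transcription start is shown for genes with the pyrimidine letters CTTTC there and for genes without them. Promoters of RefSeq (build GRCm38.p6) were matched for 68 of the 89 members. Each sequence runs 5′ to 3′ on the gene's strand from 30 bases before the start to the first 20 bases of the transcript, with CTTTC in capitals. Rpl35, Rpl13a and Rpl28 (60S) and Rps10 (40S) carry it and rose at 7 d. Rplp2, a stalk gene, carries it and did not pass the test at 7 d, and Rps2 and Rpl3l, the 2 members that fell, do not carry it. Rps12 and Rps6, which rose, do not carry it either. In the stretches shown, their longest pyrimidine runs are 11 and 10 bases, beside 10 in Rplp2, 6 in Rps2 and 5 in Rpl3l. At 7 d 16 of the 17 tested members with CTTTC near the start rose and 38 of the 47 without it did. Of all tested genes 39.0% rose at 7 d, and whether members with and without CTTTC differ was not tested.
Rpl35 (chr2:39005112-39005161, - strand): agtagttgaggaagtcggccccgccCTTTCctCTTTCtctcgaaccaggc
Rpl13a (chr7:45128726-45128775, - strand): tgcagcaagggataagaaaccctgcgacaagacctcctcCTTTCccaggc
Rpl28 (chr7:4792935-4792984, + strand): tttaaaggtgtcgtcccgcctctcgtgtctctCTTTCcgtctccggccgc
Rps10 (chr17:27635225-27635274, - strand): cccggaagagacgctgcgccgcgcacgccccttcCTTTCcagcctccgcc
Rplp2 (chr7:141447621-141447670, + strand): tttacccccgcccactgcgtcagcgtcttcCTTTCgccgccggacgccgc
Rps12 (chr10:23787190-23787239, - strand): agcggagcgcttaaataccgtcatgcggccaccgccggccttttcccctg
Rps6 (chr4:86857348-86857397, - strand): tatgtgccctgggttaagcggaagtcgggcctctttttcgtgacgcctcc
Rps2 (chr17:24720033-24720082, + strand): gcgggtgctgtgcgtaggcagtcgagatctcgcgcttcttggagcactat
Rpl3l (chr17:24727796-24727845, + strand): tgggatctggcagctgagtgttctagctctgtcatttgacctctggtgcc
Within 20 bases either side of the start, CTTTC stood on the gene's strand in 19 of the 68 members (27.94%) and in 5.402% of 27025 promoters, 1 a gene. Counted on both strands it stood in 22 members (32.35%) and in 9.939% of promoters. A run of at least 8 pyrimidines on the gene's strand, which can overlap CTTTC, stood in 29 members (42.65%) and in 15.87% of promoters. In the whole window from 250 bases before to 50 after the start, read on both strands, CCGGAAG stood in 25 members (36.76%, against 9.136%), GGGCGG in 40 (58.82%, against 35.92%) and TATAAA in 8 (11.76%, against 14.16%). These are matches of letters at annotated starts, which need not be the starts used in the heart. At 7 d the median log2FC was 0.64 over the tested members with CTTTC near the start and 0.69 over those without.

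Library totals were 12351525 to 13629120 counts for sham hearts, 18355720 to 19238101 for 7 d hearts and 15300344 to 15770389 for 28 d hearts. TMM factors, by which these totals were multiplied, were 0.869 to 0.881, 1.08 to 1.13 and 0.985 to 1.10, so levels set across groups depend on this scaling. Summed markers of the main cell types moved strongly between the groups, as a check of the tissue and for reading the values below. The 15 cardiomyocyte markers summed to 161651–165853 CPM in sham hearts, 25673–32220 at 7 d and 58724–99761 at 28 d, and all 15 fell at 7 d. The 12 fibroblast markers summed to 2540–2586, 43592–56772 and 7089–14022 CPM, and the 12 macrophage markers to 625–701, 5696–7140 and 1105–1733 CPM, and all 24 rose at 7 d. No marker of these 3 lists was at 0 in any group. In bulk RNA, fewer cells of a type and less RNA per cell cannot be told apart, and the part of cell makeup in the results below was not tested. Adipoq, a fat cell gene, was over 100 CPM in 3 libraries, 1 at 7 d (replicate 3) and 2 at 28 d (replicates 1 and 3). Nothing in the labels gives a batch.

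The summed ribosomal protein genes took a larger share of the library after infarction. They held 1.78%, 1.82% and 1.79% of the counts in the sham hearts, 3.80%, 3.31% and 3.58% at 7 d, and 2.19%, 2.19% and 2.59% at 28 d. The 3 groups did not overlap, and the 28 d hearts lay between the other two. The means were 1.79 ± 0.022% (SD, n = 3), 3.56 ± 0.25% and 2.32 ± 0.23%. Each of the 3 comparisons gave an exact two-sided permutation p of 0.1, the smallest that 3 against 3 hearts allow, and 0.1304 after Benjamini-Hochberg adjustment over the 30 permutation tests made. A share of counts does not depend on the scaling between libraries, but it moves with every other gene in the library.

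**Figure D1:**
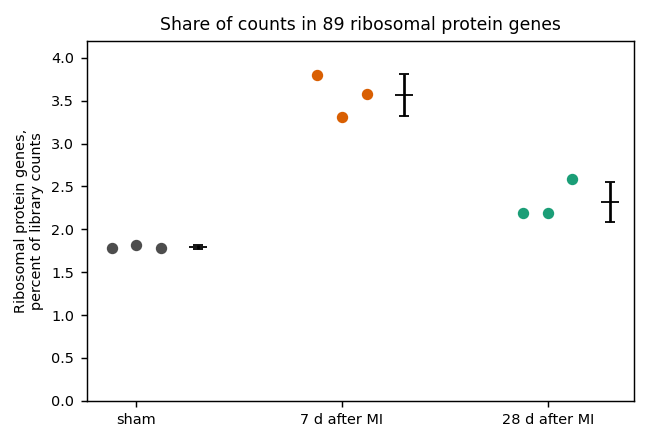
Percent of each library's counts in the 89 ribosomal protein genes (y axis) in the 3 sham hearts, 3 hearts at 7 d and 3 at 28 d after infarction (points). Bars are mean ± SD; the 7 d hearts sit at 3.31 to 3.80%, the 28 d hearts at 2.19 to 2.59% and the sham hearts at 1.78 to 1.82%.

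The comparison of 7 d hearts with sham hearts asks how these genes stood a week after the artery was closed. Of the 84 tested members 70 rose and 2 fell, with a median log2FC of 0.70. Over all tested genes 74.4% passed, 39.0% as higher and 35.4% as lower, with a median of 0.06. Both subunits moved alike, with 27 of 31 genes of the 40S subunit higher and 1 lower (median 0.72) and 41 of 44 of the 60S subunit higher and 0 lower (median 0.72). The 3 sham hearts and the 3 hearts at 7 d did not overlap in 72 members that stood higher, where 42.6% of all genes did so, and in 3 that stood lower (38.2% of all genes). With library size alone these were 80 members (55.1% of all genes) and 1 member (27.1%).

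The largest rise was that of Rpl3, a 60S protein close to the peptide bond-forming centre. Rpl3 stood at 249, 225 and 248 CPM in the sham group, 800.1, 712 and 736 CPM at 7 d and 495, 540.2 and 549 CPM at 28 d. No sham heart came near any infarcted heart, and the 7 d hearts were the highest. At 7 d Rpl3 rose 3.12-fold (log2FC 1.64 ± 0.09, edgeR adjusted p = 3.89e-07).

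Rps12, a protein of the 40S head, went from 187, 188 and 195 CPM in sham hearts to 569, 449 and 501 CPM at 7 d, a log2FC of 1.42 ± 0.12 (edgeR adjusted p = 3.38e-06). Rps20, which sits at the same head of the 40S subunit, went from 157, 162 and 162 to 423, 361 and 363 CPM (1.26 ± 0.09). Rpl39, a small protein that lines the exit tunnel of the new chain, went from 69.1, 75.7 and 76.2 to 200.3, 176 and 175 CPM (1.32 ± 0.08). In each of these 3 genes every 7 d heart stood more than 2-fold above every sham heart. Rpl13a, often used as a reference gene in quantitative PCR, went from 286, 276 and 274 to 723, 618 and 647 CPM (1.25 ± 0.10). Of the other common reference genes, Rplp0 rose by 0.53 ± 0.09, Rpl4 by 0.59 ± 0.09, Rps18 by 0.64 ± 0.10 and Rpl32 by 0.74 ± 0.09 on the log2 scale. All 5 of these reference genes thus rose at 7 d.

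Some members are known for roles outside the bulk of the subunit. Rps6, the 40S protein that S6 kinases phosphorylate below mTORC1, rose by 0.73 ± 0.09 on the log2 scale. Of the stalk, Rplp0 (its base) stood at 803, 851 and 802 CPM in sham and 1287, 1125 and 1140.4 CPM in 7 d hearts. Rplp1 stood at 345, 375 and 384 and 703, 587 and 617 CPM and rose by 0.79 ± 0.10. Rplp2, the partner of Rplp1 in the stalk dimer, stood at 211, 214 and 209 and at 273, 215 and 242 CPM, with a log2FC of 0.21 ± 0.10 that did not pass (edgeR adjusted p = 0.1). Rplp2 passed without 7 d replicate 2, at 0.29 (edgeR adjusted p = 0.0313). Among the 6 members with the most counts, Rpsa, which is also the laminin receptor gene, rose by 0.61 ± 0.10 and Rps4x by 0.91 ± 0.09 on the log2 scale. Whether the stalk genes differ in their change was not tested.

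**Figure D2:**
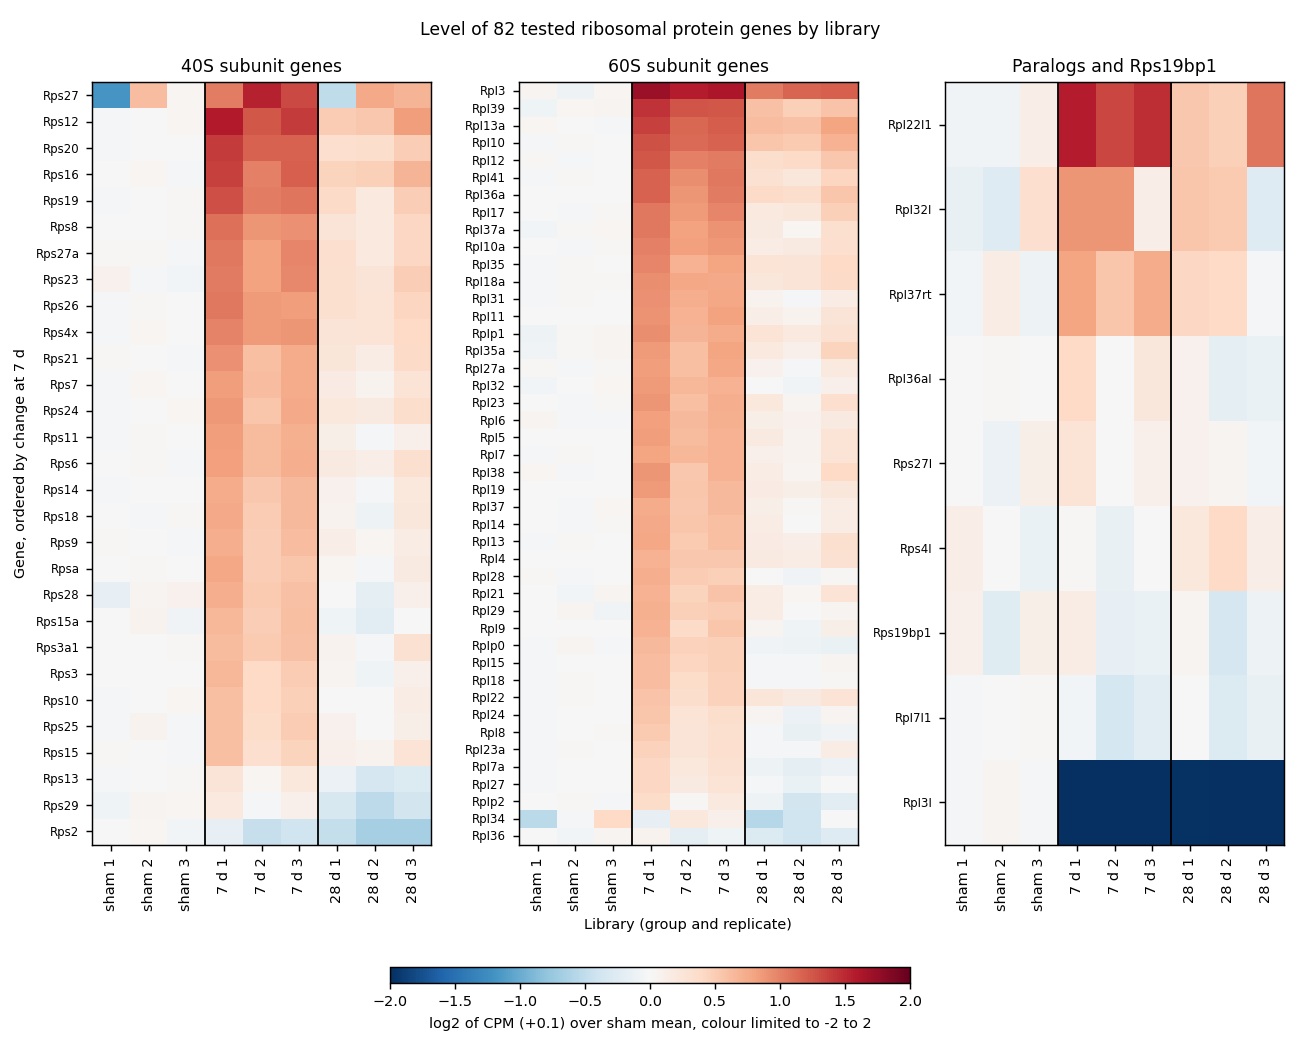
Level of 82 tested genes (rows) in each of the 9 libraries (columns), as log2 of CPM plus 0.1 over the sham mean, for 40S genes, 60S genes and paralogs with Rps19bp1. Red is above and blue below the sham mean, limited to -2 to 2; nearly all rows are red at 7 d and paler at 28 d, and Rpl3l, beyond the limit in 5 of the 6 infarcted hearts, and Rps2 are blue in both.

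Rps2, a 40S protein near the entry of the mRNA channel, was the only standard member that fell at 7 d. It stood at 809, 836 and 783 CPM in the sham group, 722, 589 and 617 CPM at 7 d and 579, 510.3 and 512 CPM at 28 d. All 6 infarcted hearts lay below the 3 sham hearts on this scale. With library size alone the CPM of Rps2 were 707, 736 and 680.0 for the sham group, 781, 648 and 694 at 7 d and 571, 527 and 560 at 28 d. There the 7 d hearts overlapped the sham hearts and the 28 d hearts lay below them. The log2FC was -0.33 ± 0.10 at 7 d (edgeR adjusted p = 0.0152) and -0.60 ± 0.10 at 28 d (edgeR adjusted p = 0.00112). The fall at 7 d did not pass without 7 d replicate 2 (-0.27, edgeR adjusted p = 0.06) or without 7 d replicate 3 (-0.30, edgeR adjusted p = 0.0562), and was gone with library size alone as scaling (0.0001145).

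Besides Rplp2, Rps13 (log2FC 0.17), Rps29 (0.09) and Rpl36 (-0.06) were among the standard genes that did not pass at 7 d, with changes small beside the median of the members. With library size alone Rpl36 passed as higher (0.27), as did Rps13 and Rps29. Rps13 also passed without 7 d replicate 2 (0.24, edgeR adjusted p = 0.0359). Rpl34, which did not pass either, was counted at only 0.611, 0.920 and 1.27 CPM in the sham and 0.818, 1.09 and 1.01 CPM in the 7 d hearts. Rps27 was as low, at 0.0872, 0.552 and 0.338 CPM in sham and 0.770, 1.14 and 0.962 CPM in 7 d hearts, and passed as higher (1.54 ± 0.56, edgeR adjusted p = 0.029) on these few counts. It no longer passed without sham replicate 1 or 3 or 7 d replicate 2 or 3 (log2FC 1.10 to 1.57, edgeR adjusted p = 0.0549 to 0.102).

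Counts of a few standard genes were near 0 in all 9 libraries, Rpl26 with 0 counts and Rpl30 with at most 8 in any library, so these 2 were not tested. Ribosomal protein genes have many processed pseudogenes, and how reads that fit several places were counted is not given in the sources used here. In the GENCODE M21 transcripts, a median of 54.5% of the stretches of 50 bases of a tested member also occurred in transcripts of other genes. The share was 98.65% for Rps27, 50.58% for Rpl34, 71.28% for Rpl26 and 47.79% for Rpl30. The values of members with high shares are therefore uncertain in level. The share alone does not set the genes near 0 apart from the others. Rps10 (92.43%), Rpl10 (92.13%) and Rps12 (90.11%) had sham means of 169, 315 and 190 CPM. Why the genes near 0 had so few counts was not tested. Of the 41 members with a share of 10 to 60%, 35 rose at 7 d and 0 fell. Of the 37 above 60%, 31 rose and 1 fell, and of the 6 below 10%, Rpl3l and Rps20 among them, 4 rose and 1 fell. Over all tested genes 39.0% rose and 35.4% fell at 7 d. Whether shared stretches bear on the changes was not tested.

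Paralogs did not move as a block. Rpl3l, the striated muscle paralog of Rpl3, had the largest change of any member. It stood at 285, 307 and 290.1 CPM in the sham group, 4.96, 6.19 and 5.44 CPM at 7 d and 74.9, 27.7 and 24.5 CPM at 28 d. At 7 d it was 53.1-fold lower than in sham hearts (log2FC -5.73 ± 0.43, edgeR adjusted p = 1.76e-06). At 28 d it was 6.94-fold lower (-2.80 ± 0.37, edgeR adjusted p = 0.000277), and 28 d replicate 1 stood well above the other 2 hearts. Without that heart the log2FC at 28 d was -3.50. From 7 d to 28 d Rpl3l rose by 2.93 ± 0.40 on the log2 scale, or 2.23 without that heart.

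Rpl3 and Rpl3l have transcripts of similar length (1351 and 1375 bases), so length alone does not set their counts apart, but the level of Rpl3 is uncertain for the shared stretches given below. Of the counts of both genes, Rpl3l held 53.3%, 57.7% and 53.9% in the sham hearts, 0.616%, 0.862% and 0.734% at 7 d, and 13.1%, 4.88% and 4.27% at 28 d. The counts of the pair thus went from about equal to nearly all Rpl3, and at 28 d Rpl3 still held the larger part in every heart. Each contrast of the log2 ratio gave an exact permutation p of 0.1, the smallest possible (0.1304 adjusted over 30 tests). The mean log2 ratio of Rpl3l to Rpl3 was 0.29 ± 0.14 (SD, n = 3) in sham hearts, -7.09 ± 0.24 at 7 d and -3.83 ± 0.96 at 28 d. Of Rpl3l none of its 50-base stretches occurred in another gene's transcripts, and of Rpl3 85.56% did. Rpl3 lies on chromosome 15 (80077781-80083406) and Rpl3l on chromosome 17 (24727826-24736143), both protein-coding, and counts are over whole genes.

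Cardiomyocyte markers fell in the same hearts, and their values stand beside those of Rpl3l. The 15 markers had log2FC between -4.96 (Ckm, the muscle creatine kinase) and -1.32 at 7 d, with a median of -2.95. Per 1000 CPM of the summed markers, Rpl3l stood at 1.73, 1.90 and 1.75 CPM in the sham group, 0.154, 0.237 and 0.212 CPM at 7 d, and 0.751, 0.361 and 0.417 CPM at 28 d. Rpl3l thus stood lower against these markers in all 6 infarcted hearts than in any sham heart (exact permutation p = 0.1, the smallest possible, 0.1304 adjusted). Mean log2 ratios differed by -3.18 at 7 d and -1.89 at 28 d from sham.

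**Figure D3:**
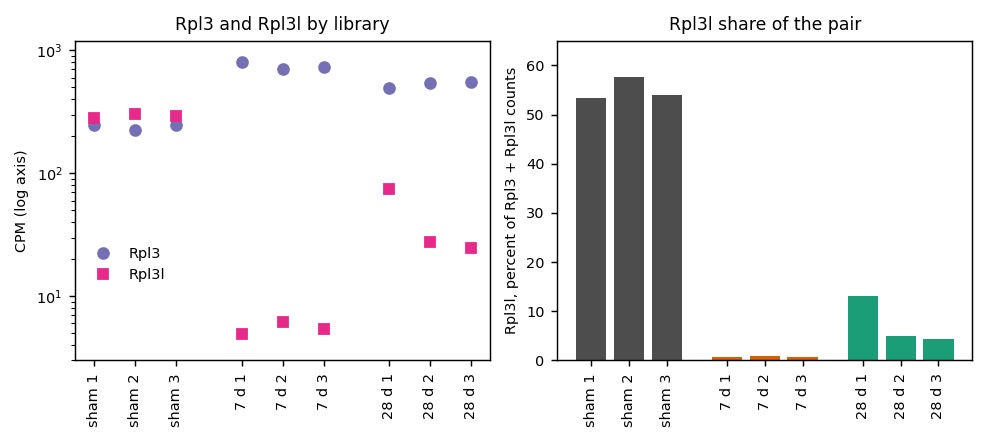
Left, CPM of Rpl3 (circles) and Rpl3l (squares) in each library on a log axis; right, Rpl3l as percent of the counts of both genes in each library. Rpl3l holds 53.3 to 57.7% in sham hearts, under 1% at 7 d and 4.27 to 13.1% at 28 d.

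Rpl22l1, the paralog of the 60S protein Rpl22, moved the other way from Rpl3l. It stood at 10.9, 10.9 and 12.7 CPM in the sham group, 34.5, 29.2 and 32.2 CPM at 7 d and 16.8, 16.1 and 24.2 CPM at 28 d. The log2FC was 1.47 ± 0.16 at 7 d (edgeR adjusted p = 2.01e-05) and 0.73 ± 0.16 at 28 d (edgeR adjusted p = 0.00431). Rpl22 itself rose by 0.46 ± 0.08 at 7 d, from 149.6, 157 and 155 to 228, 196 and 211 CPM. Of the counts of both genes Rpl22l1 held 6.79%, 6.52% and 7.56% in sham hearts, 13.2%, 13.0% and 13.3% at 7 d and 8.43%, 8.49% and 11.5% at 28 d. Every infarcted heart was above every sham heart.

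Rpl36al, Rpl7l1 and Rps4l did not pass at 7 d under TMM scaling while their parent genes rose. With library size alone Rpl36al (0.55) and Rps4l (0.29) passed as higher at 7 d, and Rpl7l1 stood at 0.14 and did not pass. Rpl36al stood at 53.3, 54.5 and 53.4 CPM in sham and 70.8, 54.3 and 62.7 CPM in 7 d hearts (log2FC 0.22, not passed; 0.31 and edgeR adjusted p = 0.0178 without 7 d replicate 2), and Rpl36a rose by 1.04 ± 0.09. The share of Rpl36al in the pair went from 38.1–38.7% to 25.5–26.6%. Of the 50-base stretches 63.31% of Rpl36al and 85.48% of Rpl36a occurred in other genes' transcripts, so this share is uncertain. Rpl7l1, a nucleolar relative of Rpl7, stood at a mean of 63.7 ± 0.837 and 55.5 ± 5.70 CPM (SD, n = 3 each; -0.20, not passed; -0.28 and edgeR adjusted p = 0.0239 without 7 d replicate 1), and its share went from 12.7–13.1% to 6.80–7.58%. Rps4l stood at 26.3, 23.7 and 21.8 and 24.2, 21.6 and 23.9 CPM (-0.04, not passed), and its share of the pair with Rps4x went from 4.26–5.17% to 2.38–2.55%. In these 3 pairs no 7 d heart overlapped a sham heart (exact permutation p = 0.1, the smallest possible, 0.1304 adjusted).

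Of the 3 remaining tested paralogs only Rpl37rt passed at 7 d under TMM scaling. Rps27l, a paralog of Rps27 and a p53 target, stood at 47.98, 44.9 and 52.6 CPM in sham and 58.6, 48.8 and 51.8 CPM in 7 d hearts (0.13, not passed). With library size alone Rps27l passed as higher (0.46, edgeR adjusted p = 0.000665). Rpl37rt, counted at 6.37, 7.36 and 6.17 and 11.5, 9.80 and 11.2 CPM, rose by 0.71 ± 0.16, and Rpl37 rose by 0.64 ± 0.08. Of the 50-base stretches of Rpl37rt 91.02% occurred in transcripts of other genes, so its level and its rise are uncertain. Rpl32l was under 2 CPM in every heart and passed in no comparison. At 7 d it did so without 7 d replicate 3 (0.96, edgeR adjusted p = 0.0461) and with library size alone (1.06, edgeR adjusted p = 0.0221). Rpl10l and Rps27rt had 0 counts in all hearts and Rpl39l at most 11 in any, so these 3 were not tested. Rps19bp1 stood at 10.03, 7.82 and 10.1 CPM in sham and 10.3, 8.27 and 8.52 CPM in 7 d hearts and passed in no comparison.

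By 28 d most members stood between their sham and 7 d levels. The comparison with sham hearts asks what remained 28 d after the ligation. At 28 d 25 of the 84 members were higher than in sham hearts and 6 lower, with a median log2FC of 0.15. Of all genes 55.1% passed, 29.5% higher and 25.6% lower, with a median of 0.05, so the share of members called higher was near that of all genes. The mean CPM at 28 d lay between sham and 7 d in 64 members, below both in 19 and above both in 1. Groups did not overlap in 42 members that stood higher (34.7% of all genes) and 10 that stood lower (31.7%), or in 70 (50.5%) and 2 (20%) with library size alone.

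The count of 25 depended on the scaling and on single hearts. It was 65 higher and 2 lower with library size alone, which moved the median of all genes to 0.30 and the shares of all genes higher and lower to 45.2% and 15.9%. Without the 3 Adipoq-rich libraries 13 members were higher and 7 lower. Without sham replicate 1, 2 or 3 the higher members were 12, 15 and 12. Of all genes 23.2%, 23.6% and 22.9% were then higher, against 29.5% with all hearts. With the sham hearts summed to 1 sample, which is then assumed to vary like the infarcted hearts, 4 were higher, which were Rpl3, Rpl13a, Rpl10 and Rpl39. At 7 d library size alone gave 79 higher and 1 lower, with 51.6% of all genes higher and 25% lower and a median of 0.40.

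Of the members higher at 28 d, Rpl3 had the largest change, 2.20-fold (log2FC 1.14 ± 0.09, edgeR adjusted p = 2.31e-05). Rpl13a stood at 286, 276 and 274 CPM in sham and 426, 421 and 483 CPM in 28 d hearts and rose by 0.67 ± 0.09. Rps12 stood at 270.0, 274 and 337 CPM (0.63 ± 0.12) and Rpl10, a late-joining 60S protein, at 461, 454 and 510.5 CPM against 308, 321 and 316 CPM in sham hearts (0.59 ± 0.09). Rpl39 stood at 110.4, 102 and 110.0 CPM (0.55 ± 0.08). Of the 5 reference genes only Rpl13a passed at 28 d. Rpl4 had a log2FC of 0.21, Rplp0 of -0.10, Rps18 of 0.07 and Rpl32 of 0.02. With library size alone Rpl4, Rps18 and Rpl32 also passed, at 0.46, 0.32 and 0.27, and Rplp0 was at 0.15 and did not pass. Rpl4 also passed with DESeq2 (0.18, adjusted p = 0.0374) and with limma voom (0.21, adjusted p = 0.0418).

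Lower than in sham hearts at 28 d were Rpl3l and Rps2, as at 7 d, and among others Rps29, Rpl36 and Rps13, which had not passed at 7 d. Rps29, a small zinc-binding 40S protein, stood at 246, 272 and 267 CPM in the sham group, 301, 255 and 281 CPM at 7 d and 210.2, 181 and 202 CPM at 28 d. All 3 hearts at 28 d lay below the sham hearts in TMM-scaled CPM, though not with library size alone (log2FC -0.40 ± 0.09, edgeR adjusted p = 0.00571). Rpl36 went from 144, 139 and 150.2 to 119, 109 and 120.2 CPM (-0.31 ± 0.09) and Rps13 from 174, 178 and 181 to 164, 141 and 148 CPM (-0.24 ± 0.09). Rps13 did not pass without any 1 of the sham hearts, 7 d replicate 3 or 28 d replicate 2 or 3 (edgeR adjusted p = 0.0565 to 0.135). With library size alone Rps29 and Rpl36 did not pass (-0.16 and -0.06), and Rps13 stood at 0.007146.

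The comparison of the 2 times asks how the infarcted hearts changed from 7 d to 28 d. Between them 75 of 84 members fell and 2 rose, with a median log2FC of -0.52. Over all genes 55.2% passed, of which 26.1% of genes fell and 29.1% rose, with a median of 0.03. Of the 40S genes 29 of 31 fell and of the 60S genes 43 of 44, with medians of -0.56 and -0.53, and none rose. Groups did not overlap in 76 members that stood lower (28.9% of all genes) and in 2 that stood higher (30.9%), or in 78 (31.7%) and 2 (26.3%) with library size alone. This comparison shares its 7 d hearts with the first.

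Rps20 fell (log2FC -0.86 ± 0.09, edgeR adjusted p = 5.4e-05), from 423, 361 and 363 CPM at 7 d to 203, 204 and 226 CPM at 28 d. Rps12, Rpl39 and Rps19 fell with log2FC of -0.79 ± 0.12, -0.77 ± 0.08 and -0.77 ± 0.10. Rps19, whose human counterpart is mutated in Diamond-Blackfan anaemia, stood at 129, 130.4 and 133 CPM in the sham group, 322, 265 and 275 CPM at 7 d and 171, 149.9 and 184 CPM at 28 d. The reference gene Rplp0 fell (log2FC -0.63 ± 0.09), to 776, 765 and 751 CPM. The 2 members that rose were Rpl3l and Rps4l, the latter from 24.2, 21.6 and 23.9 to 27.7, 31.5 and 26.3 CPM (0.29 ± 0.10, edgeR adjusted p = 0.0337). The rise of Rps4l did not pass when sham replicate 2, 7 d replicate 2 or 3, or 28 d replicate 1 or 2 was left out (0.22 to 0.31, edgeR adjusted p = 0.0535 to 0.123).

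**Figure D4:**
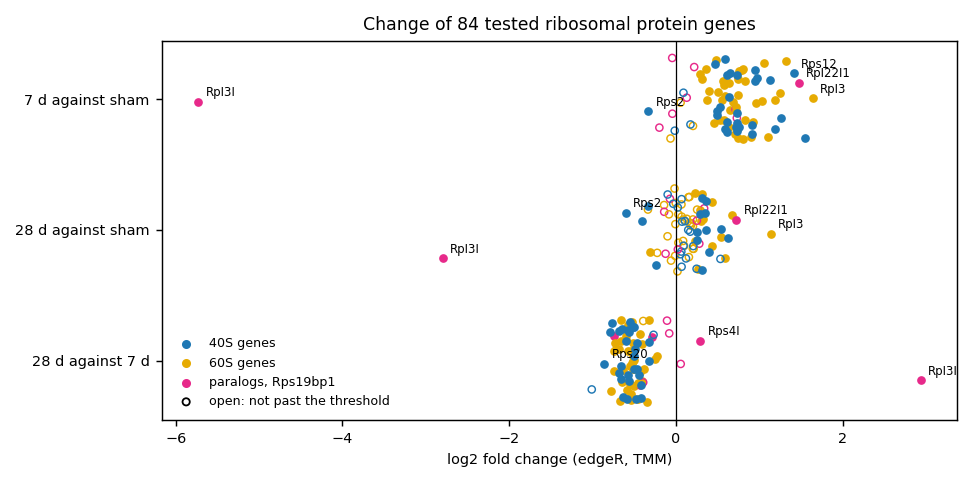
Fitted log2 fold change (x axis) of the 84 tested genes in each of the 3 comparisons (rows), 40S genes in blue, 60S genes in yellow, paralogs and Rps19bp1 in pink, open circles not past the threshold; heights within a row are spread only to separate points. The cloud lies at a median of 0.70 at 7 d against sham, 0.15 at 28 d against sham and -0.52 between the 2 times, with Rpl3l far to the left and then to the right.

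Members also varied together among the hearts of a group. Of the 84 tested members, 7 d replicate 1 was the highest of its group in 81 and 7 d replicate 2 the lowest in 75. At 28 d replicate 3 was the highest in 64 and replicate 2 the lowest in 65. These orders are of TMM-scaled CPM and were not counted over all genes, so they are not shown to be particular to the members. The median coefficient of variation of a member was 2.12% in sham hearts, 8.47% at 7 d and 7.2% at 28 d. The heart with the most ribosomal protein counts at 28 d, replicate 3, also had the lowest sum of cardiomyocyte markers of its group (58724 CPM) and the highest sums of fibroblast (14022 CPM) and macrophage markers (1733 CPM). At 7 d the highest heart, replicate 1, had the highest cardiomyocyte sum (32220 CPM) and the lowest macrophage sum (5696 CPM). Its fibroblast sum was 56712 CPM, beside 56772 CPM in replicate 2 and 43592 CPM in replicate 3. The part of cell makeup in these orders was not tested.

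Ribosomal proteins under other symbols and the machinery around the ribosome were read from lists of named genes. Of 3 tested ribosomal proteins under other symbols, 2 rose and 1 fell at 7 d (log2FC -0.44 to 1.41). At 28 d against sham 1 rose and 1 fell (-0.46 to 0.57). The shares of all genes higher and lower were 39.0% and 35.4% at 7 d, and 29.5% and 25.6% at 28 d against sham. Fau, which fuses a ubiquitin-like domain to the 40S protein Rps30, went from 116, 114 and 111 CPM in sham hearts to 332, 272 and 302 CPM at 7 d and 168, 165 and 175 CPM at 28 d. It rose by 1.41 ± 0.09 and 0.57 ± 0.09 against sham. Rack1, a signalling scaffold on the 40S head, rose by 0.83 ± 0.08 at 7 d and had 0.10 at 28 d, which did not pass. Rps27a, which fuses ubiquitin to a 40S protein and is a member by its name, rose by 0.95 ± 0.09 at 7 d.

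Other transcripts with a TOP start mostly moved with the members. Of 21 tested, which include Fau and Rack1, 15 rose and 4 fell at 7 d, and 2 rose and 13 fell from 7 d to 28 d. The shares of all genes higher and lower were 39.0% and 35.4% at 7 d, and 29.1% and 26.1% from 7 d to 28 d. Vim, the intermediate filament of fibroblasts and other mesenchymal cells, rose by 2.65 ± 0.13 at 7 d and Pabpc1, the poly(A)-binding protein, by 1.55 ± 0.11. Eef1a1, the elongation factor that brings aminoacyl-tRNA to the ribosome, went from 1255, 1249.8 and 1203 CPM in sham hearts to 5908, 5666 and 5804 CPM at 7 d and 2708, 3071 and 3551 CPM at 28 d. Its muscle and neuron paralog Eef1a2 went from 1908, 1856 and 1881 CPM to 395, 291 and 304 CPM and 1198, 998 and 779 CPM. The pair changed order, with Eef1a2 counts above those of Eef1a1 in each sham heart and below them in each infarcted heart. The mean log2 ratio of Eef1a2 to Eef1a1 went from 0.61 ± 0.04 (SD, n = 3) to -4.15 ± 0.21 at 7 d and -1.66 ± 0.51 at 28 d (exact permutation p = 0.1 for each contrast, the smallest possible, 0.1304 adjusted).

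RNAs that host small nucleolar RNAs, many of them TOP transcripts whose introns hold guides for ribosomal RNA modification, were also higher. Of 16 tested, 14 rose and 2 fell at 7 d, where 39.0% of all genes rose and 35.4% fell. At 28 d against sham 10 rose and 0 fell (29.5% and 25.6% of all genes). Between the 2 times 1 rose and 13 fell (29.1% and 26.1% of all genes). Gas5 went from 28.01, 25.01 and 27.1 CPM in sham hearts to 119.9, 98.1 and 104 CPM at 7 d and 56.7, 62.5 and 74.4 CPM at 28 d (2.00 ± 0.12 and 1.27 ± 0.12 on the log2 scale against sham). Snhg18 rose by 2.37 ± 0.22 and Snhg5 by 2.14 ± 0.25 at 7 d. The 2 falls at 7 d are of RNAs with few counts, and between 0 and 2 were called when 1 library was left out. Snhg14, which fell, was at 1.13, 1.47 and 2.03 CPM in sham and 0.914, 0.693 and 0.481 CPM in 7 d hearts.

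Fewer of the factors that build and drive ribosomes rose at 7 d than not under TMM scaling. Their counts stand beside 39.0% of all genes higher and 35.4% lower at 7 d, or 51.6% and 25% with library size alone, and the lists were not tested against other genes. Of 56 nucleolar and assembly factors 6 rose and 19 fell at 7 d, with a median log2FC of -0.07, and with library size alone 30 were higher and 9 lower, near the shares of all genes. Npm1, the nucleolar chaperone nucleophosmin, rose by 0.88 ± 0.08, and Rrp12 and Bysl, both needed to mature the 40S subunit, fell (log2FC -1.19 ± 0.13 and -1.15 ± 0.11). Fbl, the methyltransferase of ribosomal RNA, stood at 27.5, 27.04 and 28.6 CPM in sham and 36.3, 30.4 and 30.2 CPM in 7 d hearts and did not pass. Of 18 genes for RNA polymerase I and its regulators 6 rose and 6 fell, near the shares of all genes. Myc, a driver of ribosome production, rose by 2.39 ± 0.21 at 7 d, from 3.14, 4.14 and 3.30 to 18.6, 15.2 and 21.7 CPM, and by 2.73 ± 0.21 at 28 d. Polr1a, the large catalytic subunit, fell at 7 d (log2FC -1.19 ± 0.08), as did Mycn (-2.36 ± 0.22), while Taf1d, part of the promoter factor SL1, rose by 1.27 ± 0.11.

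Of 15 genes for chaperones and nuclear import of ribosomal proteins 3 rose and 9 fell at 7 d. Naca, which also has a long muscle isoform, fell (log2FC -1.16 ± 0.10), as did the import receptors Ipo5 and Ipo7 (-0.78 ± 0.10 and -0.66 ± 0.11). Of 40 initiation factors 7 rose and 17 fell, or 20 and 13 with library size alone. Eif4e, the cap-binding protein, fell (log2FC -1.77 ± 0.15) and Eif1a rose by 1.55 ± 0.13. Of 15 elongation and termination factors 5 rose and 8 fell, or 6 and 4 with library size alone. Of 25 genes of the mTORC1 pathway and S6 kinases 4 rose and 16 fell (6 and 10 with library size alone). Mtor fell (log2FC -1.27 ± 0.12), as did Tsc2 (-1.27 ± 0.10), which restrains the complex. Of the kinases of Rps6, Rps6ka1 rose by 1.89 ± 0.13 and Rps6ka2 fell (log2FC -1.75 ± 0.26).

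Rpl5 and Rpl11, which bind Mdm2 when ribosome assembly fails, rose by 0.73 ± 0.09 and 0.80 ± 0.09 at 7 d. Of 14 genes of the p53 axis 10 rose and 4 fell at 7 d, where 39.0% of all genes rose and 35.4% fell. Phlda3 rose by 2.50 ± 0.09 and Bbc3, a death gene, by 1.50 ± 0.16. Ccng1 fell (log2FC -2.22 ± 0.18), from 1310.3, 1274 and 1331 CPM in sham hearts to 302, 285 and 256 CPM at 7 d. Cdkn1a, the classic p53 target, rose by 0.84 ± 0.12.

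Ribosomal proteins of the mitochondrion, taken by symbols beginning with Mrpl or Mrps and a digit, moved opposite to those of the cytosol. They serve the separate ribosome that makes a few respiratory chain subunits. Of 78 tested 0 rose and 77 fell at 7 d (median log2FC -1.36), where 39.0% of all genes rose and 35.4% fell. At 28 d 0 rose and 72 fell against sham (median -0.75), where 29.5% of all genes rose and 25.6% fell. From 7 d to 28 d 65 rose and 0 fell (median 0.65), where 29.1% of all genes rose and 26.1% fell. The 2 sets therefore stood apart by their medians at each time, 0.70 against -1.36 at 7 d and 0.15 against -0.75 at 28 d.

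**Figure D5:**
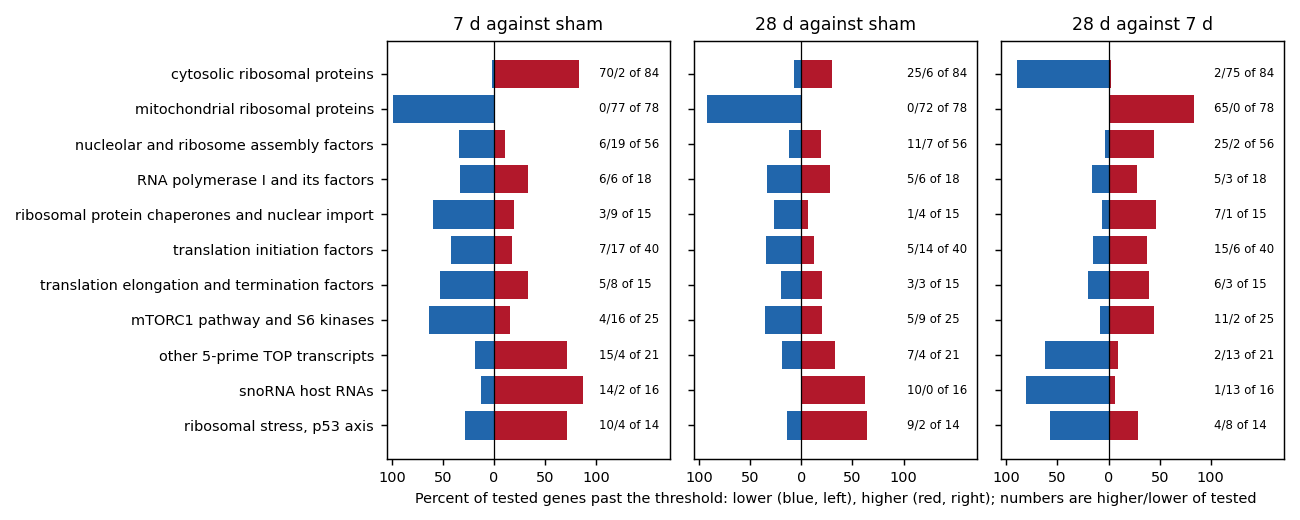
Percent of tested genes of each list past the threshold (x axis), lower to the left in blue and higher to the right in red, in the 3 comparisons (panels); numbers give higher/lower of tested. At 7 d the cytosolic ribosomal proteins are at 70 higher and 2 lower of 84 and the mitochondrial ones at 0 and 77 of 78; with library size alone 30 of 56 assembly factors and 20 of 40 initiation factors are higher at 7 d, where 51.6% of all genes are.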

How the data were processed

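Values are counts deposited by the authors, whole-number reads per gene symbol, not normalized. Per the submitters' processing notes, reads were handled with Trim Galore, STAR and featureCounts and the mm10 build, without versions. Annotation, strandedness and the handling of multi-mapping reads were not given in the sources used here. Per the labels' protocols, RNA was extracted with TRIzol and libraries were made with the KAPA RNA HyperPrep kit.

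Genes were filtered with filterByExpr (minimum count 10, minimum total 15), scaled by TMM and fitted in R 4.3.3 with edgeR 4.0.16, as 1 model with 1 coefficient per group over all 9 libraries. Two-sided quasi-likelihood tests were adjusted by Benjamini-Hochberg over 14347 genes at a threshold of 0.05. CPM are scaled to the total of all counts of a library times its TMM factor. Single values were compared by exact permutation tests. The members and lists were chosen with earlier results of these data known. Named members were the 6 largest rises and 6 largest falls per comparison, all paralogs with their parent genes, the stalk genes, Rps6, 5 common reference genes, the 6 with the most counts and those that moved against the rest or did not pass. A few other members are named for their known roles, chosen after their values were seen, as are list genes outside the 4 largest changes of each list. Some genes are counted in the totals but not reported here by name. The mitochondrial ribosomal proteins were added after seeing the data.

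Alternatives were other scalings (size factors as in DESeq2, library size alone, TMM computed without the members), DESeq2 1.42.0 itself, and filters that were absent or stricter (at least 1 CPM in 3 libraries, mean at least 2 CPM). Further ones fitted only the groups compared, used the replicate number as a block, or left out each library in turn or the Adipoq-rich ones. A single summed sham sample and limma 3.58.1 voom with group weights were chosen after seeing the data. The sham libraries differed from each other a little beyond counting noise (chi-square over degrees of freedom 1.67 to 1.8), and all were kept. This value was 18.8 to 29.3 at 7 d and 31.1 to 71.4 at 28 d. Such values alone cannot tell separate sham mice from repeat libraries of shared RNA. In simulated counts of the 14347 genes, 100 genes were changed 2-fold and 100 were changed 4-fold. For 7 d against sham, 62% and 91% of these were found, and 5 of 13960 genes left as they were passed in error. The values were 70%, 86% and 4 of 13973 for 28 d against sham. They were 73%, 98% and 22 of 13965 for 28 d against 7 d, the comparison with the most errors. With so few genes changed, the simulation does not test the scaling where most genes pass, as in the hearts. It also gave a gene the same spread in all groups. In the hearts the biological coefficient of variation was 2.77% for sham, 17% at 7 d and 24.1% at 28 d. The simulated rates therefore need not hold for the hearts. Promoters came from RefSeq, transcripts from GENCODE M21.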

Additional observations from a re-analysis of the deposited data

Results flagged for a closer look

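The change after infarction differed between 7 d and 28 d, by the edgeR test of 28 d against 7 d and a difference of over 0.75 on the log2 scale, in 5 members. Rpl3l stood 2.93 higher at 28 d than at 7 d on the log2 scale as a group estimate, after its deep fall at 7 d. The 28 d hearts stood at 74.9, 27.7 and 24.5 CPM, with replicate 1 well above the others. All 3 lay above the 7 d hearts (4.96, 6.19 and 5.44 CPM). The differences were -0.86 for Rps20, -0.79 for Rps12, -0.77 for Rpl39 and -0.77 for Rps19, and in each of these 4 genes all 3 hearts at 28 d lay below all 3 at 7 d.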

How the results depend on the processing

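Among the non-main values of the named members, 2413 kept their side of the threshold, 93 no longer passed, 56 newly passed and 8 that passed on either side changed sign. Of the 2413, 55 changed sign with neither value passing, 8 of them with library size alone. The 8 sign changes of values that passed were all with library size alone, at 28 d against sham for Rpl15 (0.25), Rpl18 (0.23), Rpl24 (0.24), Rpl28 (0.24) and Rps13 (0.007146), and at 7 d for Rpl36 (0.27), Rps2 (0.0001145) and Rps4l (0.29). This scaling takes no account of unequal composition and moved the median of all genes by 7 d from 0.06 to 0.40. Members higher at 28 d against sham numbered 25, but 65 with library size alone, 13 without the Adipoq-rich libraries and 4 with the sham libraries summed, where the lone sample is assumed to vary like the infarct libraries. Members lower at 28 d against sham numbered 6, but 2 with library size alone and 2 with the sham libraries summed. The 2 members lower at 7 d became 1 with library size alone and 1 with the sham libraries summed. The 2 members higher at 28 d against 7 d became 1 with library size alone, no filter, only the groups compared, the sham libraries summed and voom. Except for library size and fewer samples, the cause was not tested.

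Leaving out 1 library gave 69 to 72 higher and 1 to 3 lower at 7 d, 12 to 26 higher and 4 to 7 lower at 28 d, and 1 to 2 higher and 70 to 76 lower at 28 d against 7 d. The share of all genes higher at 28 d against sham was then 22.9% to 30%. Samples that share a replicate number showed correlated deviations of -0.0909 to 0.304, so the numbers were not taken as pairs. With the replicate block 70 were higher and 2 lower at 7 d, 21 and 6 at 28 d, and 2 and 74 between the 2 times. With 3 hearts a group, changes near 0.2 on the log2 scale lie at the limit of the test, and levels near 1 CPM rest on few counts. Spread between the sham hearts was far smaller (biological coefficient of variation 2.77%) than at 7 d (17%) or 28 d (24.1%), and 1 shared estimate was used.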
